A study of Mus musculus with 52 samples.

Results

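Synaptic vesicle and release genes were followed across 3 tissues of mice that carry mutant human profilin-1 and of wild-type mice. The set holds 30 named mouse genes, chosen by name as vesicle proteins, SNAREs, active zone proteins and vesicle recycling proteins, out of 55401 mouse genes in the count table. All 30 were found there by their Ensembl identifiers. Wild-type mice were FVB/NJ and received vehicle. Transgenic mice carried the human PFN1 C71G mutant, a change in an actin-binding protein that is found in familial amyotrophic lateral sclerosis (ALS), and received either vehicle or an adeno-associated virus (AAV) carrying an artificial microRNA (amiR) designed to lower Atxn2. The latter are called treated below. Each arm had 6 libraries per tissue, except 5 in wild-type cortex and 5 in transgenic vehicle muscle, for 18 libraries of spinal cord, 17 of cerebral cortex and 17 of muscle. The mice were of both sexes and 36 weeks old, except that some transgenic libraries (4 cord, 4 cortex and 3 muscle ones) came from ages of 38 or 39 weeks. No arm received a control vector, so effects of the virus and of the amiR cannot be told apart. The promoter of the transgene, the dose and the route are not given in the sources used here. The labels do not say that each library came from a separate mouse, so p-values measure the spread between these libraries, which may be technical.

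At a chemical synapse, transmitter is packed into vesicles by transporters such as the vesicular glutamate transporters. Vesicles are held and primed at the active zone by scaffold proteins such as Bassoon, Piccolo, RIM and Munc13. Fusion is driven by the SNARE proteins on the vesicle (VAMP, also called synaptobrevin) and on the plasma membrane (SNAP-25 and syntaxin), and complexin and the calcium sensor synaptotagmin hold and time it. NSF and its adaptor SNAP then take the SNAREs apart, followed by recovery of membrane through dynamin, amphiphysin and synaptojanin. Many of these proteins come in paralogs, and neurons of the spinal cord and brainstem tend to use synaptotagmin-2, VAMP1 and the glutamate transporter VGLUT2, where forebrain neurons use synaptotagmin-1, VAMP2 and VGLUT1. RNA of these genes is made in the cell body, so spinal cord RNA reports on neurons whose bodies lie in the cord, and muscle RNA holds little of the RNA of motor neurons whose terminals lie there.

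Libraries held 66.5 to 111.9 M counts (M, 1e6), and levels are given as CPM (counts scaled to a library of 1e6) after scaling by the trimmed mean of M values (TMM). The markers fitted the labelled tissues: markers of cortical excitatory neurons summed to 1018 to 1428 CPM in wild-type cortex and 76.6 to 83.3 CPM in wild-type cord, motor neuron markers to 412 to 466 CPM in wild-type cord, and muscle fibre markers to 131396 to 163173 CPM in wild-type muscle. Human PFN1 was at 0 CPM in wild-type cord and 633 to 736 (median 686) CPM before TMM scaling in transgenic vehicle cord. In treated cord human PFN1 ran at 606 to 1165 (median 833) CPM on the same scale. The part of this difference in the comparison of these arms was not tested. Atxn2, the target of the amiR, was at 123 ± 5.72 CPM (SD, n = 6) in wild-type cord, 106 ± 2.68 CPM (SD, n = 6) in transgenic vehicle cord and 72.5 ± 0.859 CPM (SD, n = 6) in treated cord. For 4 of the cord libraries, titles and library names name opposite treatments. Counts of the vector's WPRE element, 0 in every untreated cord library and 3189 to 6962 in treated cord libraries, followed the titles, which were used.

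Promoter sequence (RefSeq, GRCm38.p6, 250 bases before to 50 bases after each start) was at hand for 27 of the 30 genes, with 38 promoters among them. Snap25, Vamp2 and Syngr3 had none. The stretches below are shown because these genes move together in spinal cord and because each stretch holds a letter match to a motif long studied in neuronal genes: RE1, the site of the repressor REST, which holds neuronal genes down outside neurons, or CRE, the cyclic AMP response element. Sequences run 5′ to 3′ on the gene's strand, and capitals mark the matches. In Syn1 the first match is the left part of RE1 and the second is a full CRE. In Unc13a, which lies just after the start, the right and the left part of RE1 stand on the opposite strand. In Syt2 and Slc17a6 the match is the short CRE form TGACG.
Syn1 (GRCm38.p6, chrX:20921059-20921158, minus strand): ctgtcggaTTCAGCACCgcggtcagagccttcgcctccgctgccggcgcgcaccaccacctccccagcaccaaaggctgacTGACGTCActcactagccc
Unc13a (GRCm38.p6, chr8:71671727-71671753, minus strand): GGCGCTGTCCgcgcccccGGTGCTGAA
Syt2 (GRCm38.p6, chr1:134646423-134646482, plus strand): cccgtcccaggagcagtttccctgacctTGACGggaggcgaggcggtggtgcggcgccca
Slc17a6 (GRCm38.p6, chr7:51624507-51624566, plus strand): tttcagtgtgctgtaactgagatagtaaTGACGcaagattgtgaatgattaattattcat
Both strands were searched. The left part of RE1 (TTCAGCACC) was in 2 of the 38 promoters of the set (Syn1 and Unc13a) and in 0.371% of all 32851 promoters, and the right part, the opposite strand of the first capitals of the Unc13a stretch, in 1 of the 38 and 0.137% of all. The full CRE (TGACGTCA) was in 1 of the 38 and 1.79% of all, and the E-box CACGTG in 2 of the 38 (Sv2b and Nsf) and 7.15% of all. The short CRE form (TGACG), which the full CRE contains, was in 8 of the 38 promoters (21.1%) and 20.8% of all, so it was about as common in the set as elsewhere. The core and the full form of RE1, in which the left and right parts follow each other, were in 0 of the 38 promoters. Over all promoters they were in 0.0365% and 0.00304%. At shares this low, 0 of 38 does not set these genes apart, and forms with mismatches were not searched. These are letter matches in short windows and not measured sites.

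In wild-type spinal cord the set was led, per kilobase (kb) of exon, by the complexin Cplx1 at 431 CPM per kb and the plasma membrane SNARE Snap25 at 376 CPM per kb. The vesicle GTPase Rab3a (171 CPM per kb), the membrane-cutting GTPase Dnm1 (159), the Rab3 effector Rph3a (158) and the vesicle protein Syp (127) came next. At the low end lay Slc17a7, which encodes VGLUT1, at 0.531 CPM per kb, the syntaxin Stx1a at 4.99, and the large active zone scaffolds Pclo (6.11) and Bsn (11.5). Wild-type cortex had another order, led by Snap25 (321 CPM per kb), Cplx2 (312), Vamp2 (242), Cplx1 (226) and Slc17a7 (191).

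Wild-type cord and wild-type cortex differed in 25 of the 30 genes, 8 higher in cord and 17 lower, in a joint edgeR fit of both tissues in which 64.4% of 21562 genes were called at an adjusted p of 0.05 (32.6% higher, 31.8% lower in cord). This threshold defines a call throughout. The 5 genes not called were Rab3a, Snap25, Napb, Synj1 and Amph. The paralogs parted by tissue. Syt2 ran at 677 to 796 (median 746) CPM in wild-type cord and at 31.9, 78.9, 51.2, 73.7 and 77.4 CPM in the 5 wild-type cortex libraries, and its partner Syt1 at 206 to 225 (median 214) CPM in cord and 1289, 1365, 1266, 1370.4 and 1254 CPM in cortex. Vamp1 ran at 1013 to 1170.2 (median 1059) CPM in cord and 98.7, 149, 128, 146 and 141 CPM in cortex, while Vamp2 ran at 289 to 319 (median 302) and at 884, 897, 941, 986 and 908 CPM. Every cord library thus lay above every cortex library for Syt2 and Vamp1 and below it for Syt1 and Vamp2. The differences, cord minus cortex, were 3.55 ± 0.29 log2 units (SE) for Syt2, 3.00 ± 0.15 for Vamp1, −2.65 ± 0.11 for Syt1 and −1.64 ± 0.06 for Vamp2.

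Complexins and glutamate transporters showed the same split. Cplx1 ran at 882 to 1047 (median 927) CPM in wild-type cord and at 396, 515, 488, 563 and 511 CPM in wild-type cortex (log2 difference 0.91 ± 0.09), whereas Cplx2 ran at 288 to 318 (median 301) CPM in cord and 1393, 1557, 1615, 1475 and 1636 CPM in cortex (−2.39 ± 0.10). Slc17a6, which encodes VGLUT2, ran at 210.3 to 238 (median 227) CPM in cord against 26.9, 22.5, 17.4, 27.4 and 32.8 CPM in cortex (3.16 ± 0.30). Slc17a7 ran at 0.0833 to 4.12 (median 3.28) CPM in cord, with 1 library at 7 counts, and at 954, 971, 1136, 1120.1 and 979.7 CPM in cortex (−8.53 ± 0.39). In both pairs the cord and cortex libraries were fully apart, and in opposite directions. Other genes higher in cord were the vesicle glycoprotein Sv2c (3.15 ± 0.24), Rph3a (0.77 ± 0.12), Nsf (0.47 ± 0.07) and Sv2a (0.34 ± 0.06), and the largest differences the other way outside the pairs were Stx1a (−3.76 ± 0.16), Bsn (−1.78 ± 0.11) and Rims1 (−1.59 ± 0.13). All of these differences had an adjusted p of at most 2.5e-05 in edgeR.

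**Figure D1:**
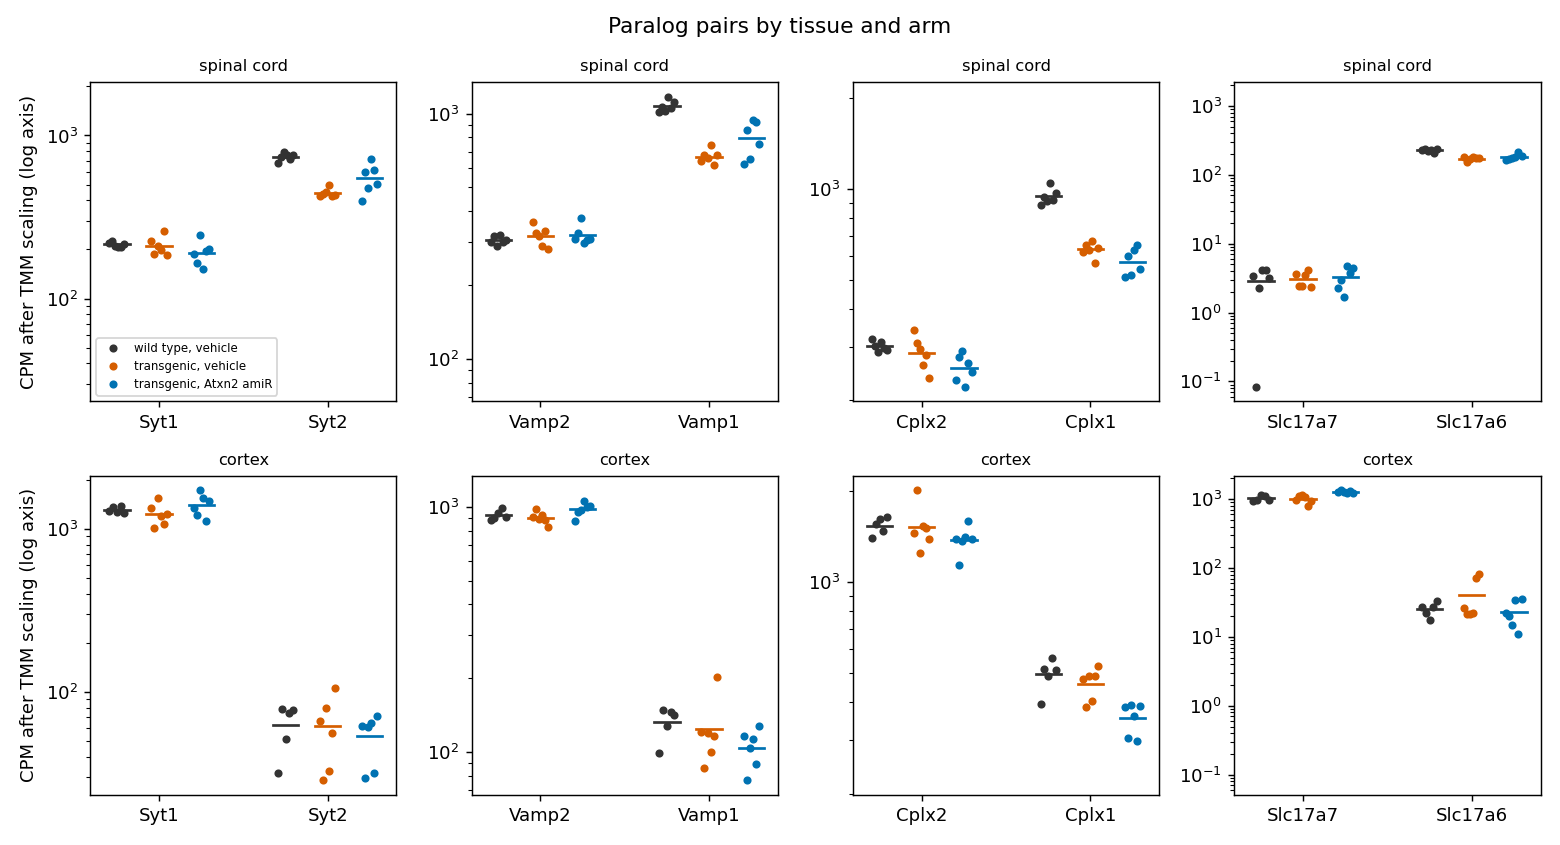
Level of 4 paralog pairs in spinal cord (top) and cortex (bottom), in CPM after TMM scaling on a log axis; each point is a library, short lines are group means, and colours give the arm. Syt2, Vamp1, Cplx1 and Slc17a6 are the higher paralog of their pair in cord and the lower one in cortex, and in cord they lie lower in transgenic vehicle than in wild-type libraries.

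Transgenic vehicle spinal cord had less RNA of most of the set than wild-type cord. Of 30 genes, 22 fell and 0 rose in the edgeR test, where 36.8% of 20307 genes were called (18.8% higher and 17.9% lower). At an unadjusted p of 0.05, 23 were lower and 0 higher, and DESeq2 called 22. The share of all genes under that unadjusted p was not computed, and the share that DESeq2 called is not given here. The median log2 change of the set was −0.38 beside 0.00 over all genes tested. At the small end Sv2a fell by 12.4%, and at the large end Sv2b fell by 44.6%. Summed over the set, transgenic vehicle libraries held 10333 to 10856 CPM and wild-type libraries 13731 to 14825 CPM. For 21 of the 30 genes every transgenic vehicle library lay below every wild-type library, and for 0 above. Over all 20307 genes tested the libraries of the arms did not overlap for 22.9% (11.8% higher, 11.1% lower). In bulk tissue, fewer neurons and less of these RNAs per neuron cannot be told apart.

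**Figure D2:**
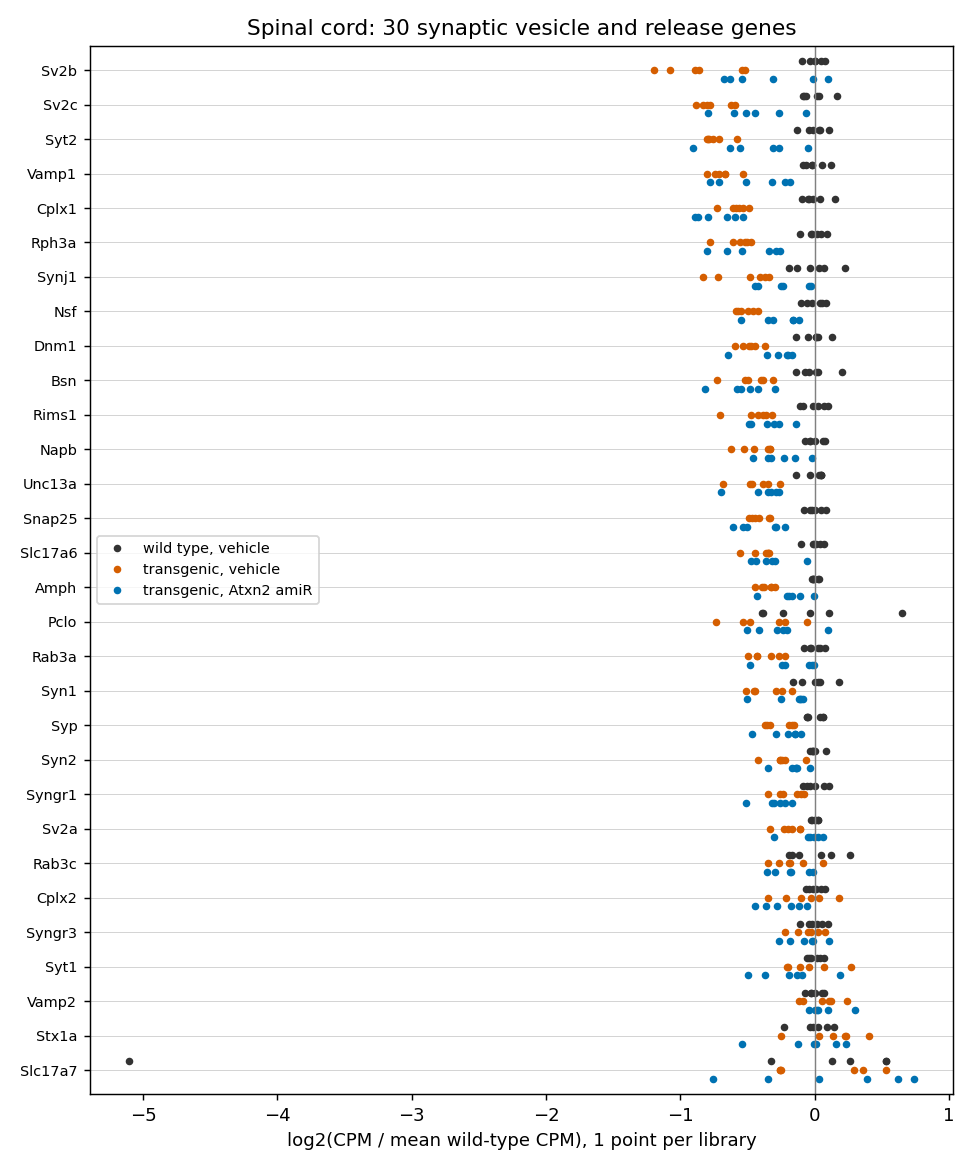
Level of each of the 30 genes in 18 spinal cord libraries, as log2 of CPM over the wild-type mean; each point is a library, coloured by arm, and genes are ordered by the transgenic vehicle change. Transgenic vehicle libraries lie left of the wild-type libraries for 21 genes (11.1% of all genes tested do so), treated libraries spread between the other two arms or beyond, and 1 wild-type library is far left for Slc17a7.

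The calcium sensors and vesicle glycoproteins held the 3 largest falls. Sv2b (chr7:75114894-75309262, minus strand), a vesicle glycoprotein of the SV2 family, ran at 148 to 166 (median 158) CPM in wild-type and 68.9 to 109.9 (median 86.1) CPM in transgenic vehicle cord (log2 change −0.85 ± 0.10, adjusted p = 7.1e-06). Sv2c (chr13:95954594-96132577, minus strand), the SV2 form rich in cord here, ran at 635 to 757 (median 663) CPM and 366 to 447 (median 389.9) CPM (log2 change −0.75 ± 0.09, adjusted p = 8.8e-06). Syt2 (chr1:134646677-134762593, plus strand), the fast calcium sensor of cord and brainstem synapses, ran at 424 to 497 (median 434) CPM in transgenic vehicle cord, below all wild-type libraries given above (log2 change −0.74 ± 0.10, adjusted p = 1.8e-05). The arms did not overlap for any of the 3. Sv2a fell less (−0.19 ± 0.06), and Syt1, at 186 to 259 (median 204) CPM in transgenic vehicle cord, spread around the wild-type range (log2 change −0.03 ± 0.10, adjusted p = 0.87).

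Among the SNAREs, Vamp1 and Snap25 fell and Vamp2 and Stx1a did not pass the test. Vamp1 (chr6:125215551-125245964, plus strand) ran at 615 to 743 (median 666) CPM in transgenic vehicle cord, apart from the wild-type libraries (log2 change −0.68 ± 0.08, adjusted p = 5.7e-06), and Snap25 at 1918 ± 88.3 CPM (SD, n = 6) against 2556 ± 102 CPM (SD, n = 6) (−0.41 ± 0.06). Vamp2 ran at 281 to 359.7 (median 322) CPM, with libraries on both sides of the wild-type range (log2 change 0.05 ± 0.06, adjusted p = 0.5), and Stx1a at 14.7 ± 2.19 CPM against 13.3 ± 1.15 CPM (log2 change 0.14 ± 0.12, adjusted p = 0.38). Of the complexins, which clamp and time fusion, Cplx1 (chr5:108518554-108550024, minus strand) ran at 570.5 to 673 (median 634) CPM, below every wild-type library (log2 change −0.58 ± 0.06, adjusted p = 1.6e-06). Cplx2 ran at 237 to 342 (median 289) CPM, its libraries reaching below and above the wild-type range (log2 change −0.08 ± 0.07, adjusted p = 0.42).

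Both SNARE recycling genes fell. Nsf (chr11:103821782-103954056, minus strand), the ATPase that pulls spent SNARE complexes apart, ran at 898 to 1027 (median 972) CPM in wild-type and 643 to 720.0 (median 673) CPM in transgenic vehicle cord with no overlap (log2 change −0.51 ± 0.06, adjusted p = 8.0e-06), and Napb, which encodes its adaptor beta-SNAP, changed by −0.44 ± 0.06. All 3 membrane recycling genes fell too. Synj1 (chr16:90936092-91011308, minus strand), a lipid phosphatase that helps to shed clathrin coats, ran at 313 to 416 (median 357) CPM and 201 to 282 (median 262) CPM, again apart (log2 change −0.52 ± 0.09, adjusted p = 0.00029); Dnm1 changed by −0.48 ± 0.07 and Amph, a membrane-bending partner of dynamin, by −0.36 ± 0.05.

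Of the Rab3 group, Rph3a (chr5:120940499-121010092, minus strand) ran at 679 to 777 (median 731) CPM in wild-type and 427 to 527 (median 504) CPM in transgenic vehicle cord (log2 change −0.57 ± 0.08, adjusted p = 3.6e-05). Every transgenic vehicle library was below every wild-type library. Rab3a fell as well (−0.36 ± 0.07), and Rab3c was at −0.16 ± 0.09 (adjusted p = 0.16). In the active zone, the scaffold Bsn (−0.47 ± 0.08), the docking factor Rims1 (−0.44 ± 0.07) and the priming factor Unc13a (−0.43 ± 0.07) fell by like amounts. Pclo had an estimate in the same range but a wider error (log2 change −0.36 ± 0.16, adjusted p = 0.1), with wild-type libraries from 105 to 216 CPM. Both synapsins, which tether vesicles to each other, fell (Syn1 −0.35 ± 0.08, Syn2 −0.24 ± 0.06), as did the vesicle membrane proteins Syp (−0.26 ± 0.06) and Syngr1 (−0.19 ± 0.06), but not Syngr3 (−0.05 ± 0.06, adjusted p = 0.57).

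Slc17a6 ran at 154 to 179 (median 177) CPM in transgenic vehicle cord, below all wild-type libraries (log2 change −0.40 ± 0.06, adjusted p = 3.0e-05). Slc17a7 stayed near its low wild-type level at 2.39 to 4.13 (median 2.95) CPM, with overlap (log2 change 0.19 ± 0.43, adjusted p = 0.77). In each of the 4 paralog pairs, then, the gene that is the higher one in cord was called and its partner was not. That order is not general: Sv2b, Bsn, Rims1, Unc13a, Syn1 and Syn2 are lower in wild-type cord than in cortex and fell too. Both comparisons use the same wild-type cord libraries, so their values are set side by side only.

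Some of the fallen genes overlap genes on the other strand, and the sources used here do not say whether the authors counted by strand. Unc13a shares 495 exonic bases with Colgalt1, which rose in transgenic vehicle cord (0.46 ± 0.06), and Rab3a shares 29 with Mpv17l2 (0.06 ± 0.06). Syn2 shares 90 with Timp4 (0.13 ± 0.08), and Syn1 shares 9 with Araf (−0.09 ± 0.03) and surrounds Timp1, which rose from 0.389 ± 0.121 to 6.36 ± 0.700 CPM (SD, n = 6). Noncoding genes on the other strand share 875 exonic bases with Syp (Gm14703), 60 with Synj1 (4930404I05Rik), 47 with Sv2b (1500012K07Rik), and 429 and 496 with Pclo (Gm26918 and Gm26954). Where counting ignored strand, reads of these pairs cannot be told apart, so the values of Unc13a, Syn1, Syn2, Rab3a, Syp, Synj1, Sv2b and Pclo are uncertain to that extent.

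Many other genes of release and of neurons were lower in the same libraries, and microglia markers higher. Of 55 other release and vesicle genes tested, 28 fell and 2 rose (median −0.24). The endocytic adaptor Snap91 (−0.44 ± 0.05), the scaffold Itsn1 (−0.42 ± 0.05), Napg (−0.34 ± 0.04) and the dense-core vesicle factor Cadps (−0.57 ± 0.07) had the smallest adjusted p. Of 24 postsynaptic genes 14 fell and 0 rose (median −0.26), among them the inhibitory scaffold Gphn (−0.25 ± 0.03) and the AMPA receptor subunit Gria4 (−0.46 ± 0.06). Of 15 pan-neuronal genes 8 fell and 2 rose (median −0.34; summed level 9845 to 10857 CPM in wild-type and 7819 to 8602 CPM in transgenic vehicle cord), with Nefl at −0.89 ± 0.12 and, rising, Thy1, a surface glycoprotein of neurons, at 1.33 ± 0.17. All 10 motor neuron markers fell (median −0.84; 412 to 466 CPM and 148 to 337 CPM), with Chat at 26.0 ± 3.08 and 14.2 ± 4.50 CPM (SD, n = 6).

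Of 11 microglia and macrophage markers 10 rose and 0 fell (median 1.70; 314 to 438 CPM in wild-type and 1128 to 1378 CPM in transgenic vehicle cord), of 8 astrocyte markers 3 rose and 1 fell (6188 to 7989 and 9300.2 to 10779.7 CPM), and of 8 oligodendrocyte markers 1 rose (16414 to 28429 and 16276 to 21656 CPM). Schwann cell markers, of which 0 of 6 were called, varied between libraries of 1 arm (95.1 to 651 and 107 to 1146 CPM). No listed marker of these 4 glial types was at 0 in either arm. The RNA integrity number was 7.20 to 8.30 in wild-type and 7.20 to 7.70 in transgenic vehicle cord. The part of these shifts in the falls of the set was not tested.

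In cortex the same transgenic vehicle contrast called 0 of the 30 genes in edgeR, where 0.0247% of 20278 genes were called (0.0148% higher, 0.00986% lower). Of the 30, 0 had an unadjusted p below 0.05, and DESeq2 called 0. Estimates ran from −0.14 for Unc13a to 0.61 for Slc17a6, with a median of −0.03 beside 0.01 over all genes. Summed over the set, wild-type cortex held 15585 to 16941 CPM and transgenic vehicle cortex 14434 to 17866 CPM. The arms overlapped for all 30 genes, while 0.577% of all 20278 genes tested had no overlap (0.286% higher, 0.291% lower). Standard errors in cortex were often wider than in cord, for instance 0.34 against 0.10 for Syt2 and 0.35 against 0.06 for Slc17a6, so modest changes of those genes were not detectable there. Slc17a6 ran at 21.2 to 81.7 (median 24.1) CPM in transgenic vehicle cortex, with 2 libraries well above the wild-type ones.

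The difference between the tissues was tested as an interaction in the joint fit. The transgene effect was more negative in cord than in cortex for 14 of the 30 genes and more positive for 0, where 14.2% of 21562 genes were called (7.88% more negative, 6.34% more positive). They were Nsf (−0.64 ± 0.09, adjusted p = 8.8e-06), Amph (−0.48 ± 0.10), Rab3a (−0.42 ± 0.09), Cplx1 (−0.53 ± 0.12), Dnm1 (−0.46 ± 0.11), Napb, Syp, Sv2a, Sv2b, Sv2c, Syn1, Rph3a, Vamp1 and Slc17a6 (−1.09 ± 0.37). Slc17a6 was at 72.2 and 81.7 CPM in transgenic vehicle cortex libraries 5 and 6 and at 21.2 to 26.0 CPM in libraries 1 to 4. Its difference thus draws on these high cortex libraries as well as on the fall in cord. Syt2, although among the largest falls in cord, did not pass this test (log2 change −0.76 ± 0.35, adjusted p = 0.16), nor did the active zone genes Bsn (log2 change −0.43 ± 0.15, adjusted p = 0.056), Rims1 (log2 change −0.35 ± 0.17, adjusted p = 0.19) and Unc13a (log2 change −0.32 ± 0.14, adjusted p = 0.12). The count was 8 without transgenic vehicle cord library 6, 1 of the 4 libraries of conflicting names (10.9% of all genes called). It was 9 without the 4 libraries of conflicting names (11.1%), and 8 with library totals in place of TMM (10.9%).

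**Figure D3:**
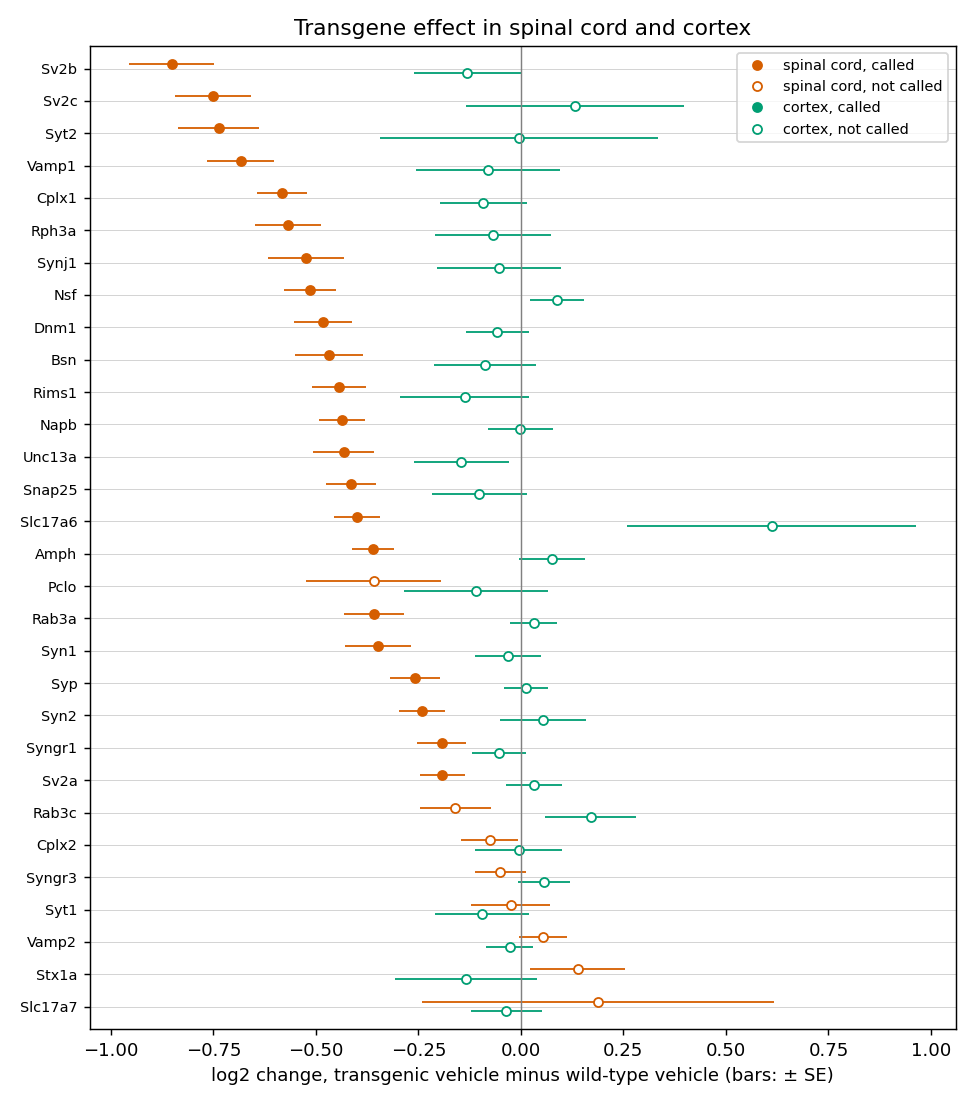
Log2 change of the 30 genes between transgenic vehicle and wild-type vehicle, in spinal cord (orange) and cortex (green); bars are ± SE from edgeR and filled points passed an adjusted p of 0.05. In cord 22 points are filled and all of these lie below 0; in cortex none is filled and estimates lie between −0.14 and 0.61.

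Treated cord differed from transgenic vehicle cord in few of these genes. Of the 30, 2 were higher and 0 lower, where 5.11% of 20307 genes were called (2.92% higher, 2.19% lower), so the share called was close to that of all genes, and the median log2 change was 0.09. At an unadjusted p of 0.05, 11 were higher and 2 lower, but the share of all genes under it was not computed. Sv2b ran at 98.9 to 169 (median 118) CPM in treated cord, with 3 libraries within the transgenic vehicle range and 3 above it, the highest reaching the wild-type range (log2 change 0.51 ± 0.10, adjusted p = 0.013). Nsf ran at 659.6 to 889 (median 821) CPM in treated cord, with 1 library within the transgenic vehicle range, 5 above it and all 6 below the wild-type range (log2 change 0.24 ± 0.06, adjusted p = 0.036). Both genes were lower in transgenic vehicle than in wild-type cord; the contrasts share the transgenic vehicle libraries.

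Treated libraries were spread out for several of the genes with large falls. Treated library 1 had the lowest summed level of the set, 9598 CPM against 11405 CPM for the median treated library. Syt2 ran at 395 to 714 (median 550.2) CPM in treated cord (log2 change 0.30 ± 0.10, adjusted p = 0.079), Sv2c at 389 to 646 (median 484) CPM (log2 change 0.32 ± 0.09, adjusted p = 0.056) and Vamp1 at 624 to 944 (median 807) CPM (log2 change 0.24 ± 0.08, adjusted p = 0.086). For each of these 3 genes 4 treated libraries lay above the transgenic vehicle range and 2 within or below it, and the highest reached the wild-type range for Syt2 and Sv2c but not for Vamp1. Cplx1 had an estimate below 0, at 509.8 to 653 (median 572) CPM (log2 change −0.14 ± 0.06, adjusted p = 0.19), with 3 treated libraries below the transgenic vehicle range and 3 within it. Synj1 (0.28 ± 0.09), Amph (0.18 ± 0.05) and Napb (0.18 ± 0.06) had estimates above 0 that missed the threshold.

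The number called moved with single libraries. It was 12, all higher, without treated library 1, a fit in which 12.4% of all genes were called: Syt2, Sv2a, Sv2b, Sv2c, Syn1, Rab3a, Vamp1, Nsf, Napb, Synj1, Dnm1 and Amph. It was 1 when any of transgenic vehicle libraries 2 to 6 or treated libraries 2, 4 and 5 was left out (1.18% to 3.38% of all genes called), and 0 without the mice over 36 weeks (0.467%). Treated libraries 1 and 2 and transgenic vehicle libraries 5 and 6 are the 4 cord libraries of conflicting names. Leaving out all 4 kept the count within 1.5 times its value. DESeq2 called 8, all higher, and 10.9% of all genes: Syt2, Sv2b, Sv2c, Vamp1, Nsf, Napb, Synj1 and Amph. Sv2b was called in 22 of 24 alternatives and Nsf in 8 of 24. Beside this, 5 of 10 motor neuron markers were higher in treated cord and 0 lower (148 to 337 CPM in transgenic vehicle and 346 to 683 CPM in treated cord), with Prph at 1.23 ± 0.23 and Chat at 0.88 ± 0.19. Of the rest, 5 of 15 pan-neuronal genes were higher and 1 lower; and 5 of 55 other release genes were higher, namely Sncg, Cadps, Snap91, Sh3gl2 and Napg. Of 11 microglia markers 0 were higher and 1 lower (565 to 1362 CPM in treated cord). Muscle fibre markers reached 728.7 CPM in 1 treated cord library and at most 99.7 CPM in the other arms. The part of these shifts was not tested.

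Treated cord remained below wild-type cord in much of the set: 19 of 30 genes were lower and 0 higher, where 25.5% of 20307 genes were called (14.6% higher, 11% lower), and the median log2 change was −0.25. The largest difference was in Cplx1 (log2 change −0.72 ± 0.06, adjusted p = 9.0e-07), ahead of Bsn (−0.52 ± 0.08), Rph3a (−0.47 ± 0.08), Vamp1 (−0.44 ± 0.08), Sv2c (−0.44 ± 0.09) and Syt2 (−0.43 ± 0.10). For 12 of the 30 genes every treated library lay below every wild-type library, and for 0 above, beside 12.6% of all 20307 genes without overlap (7.12% higher, 5.47% lower); Cplx1, Snap25, Bsn, Unc13a, Rims1 and Vamp1 were among the 12. Cplx2 was lower here (log2 change −0.24 ± 0.07, adjusted p = 0.016) and not called in the vehicle contrast; the treatment comparison of this gene gave −0.16 ± 0.07 (adjusted p = 0.16 in edgeR). Sv2a (−0.05 ± 0.06), Rab3a (−0.16 ± 0.07), Syn1 (−0.19 ± 0.08) and Synj1 (−0.24 ± 0.09), which fell in transgenic vehicle cord, did not pass the test here. Whether the 2 contrasts differ is the treatment comparison above, in which none of these 4 was called.

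**Figure D4:**
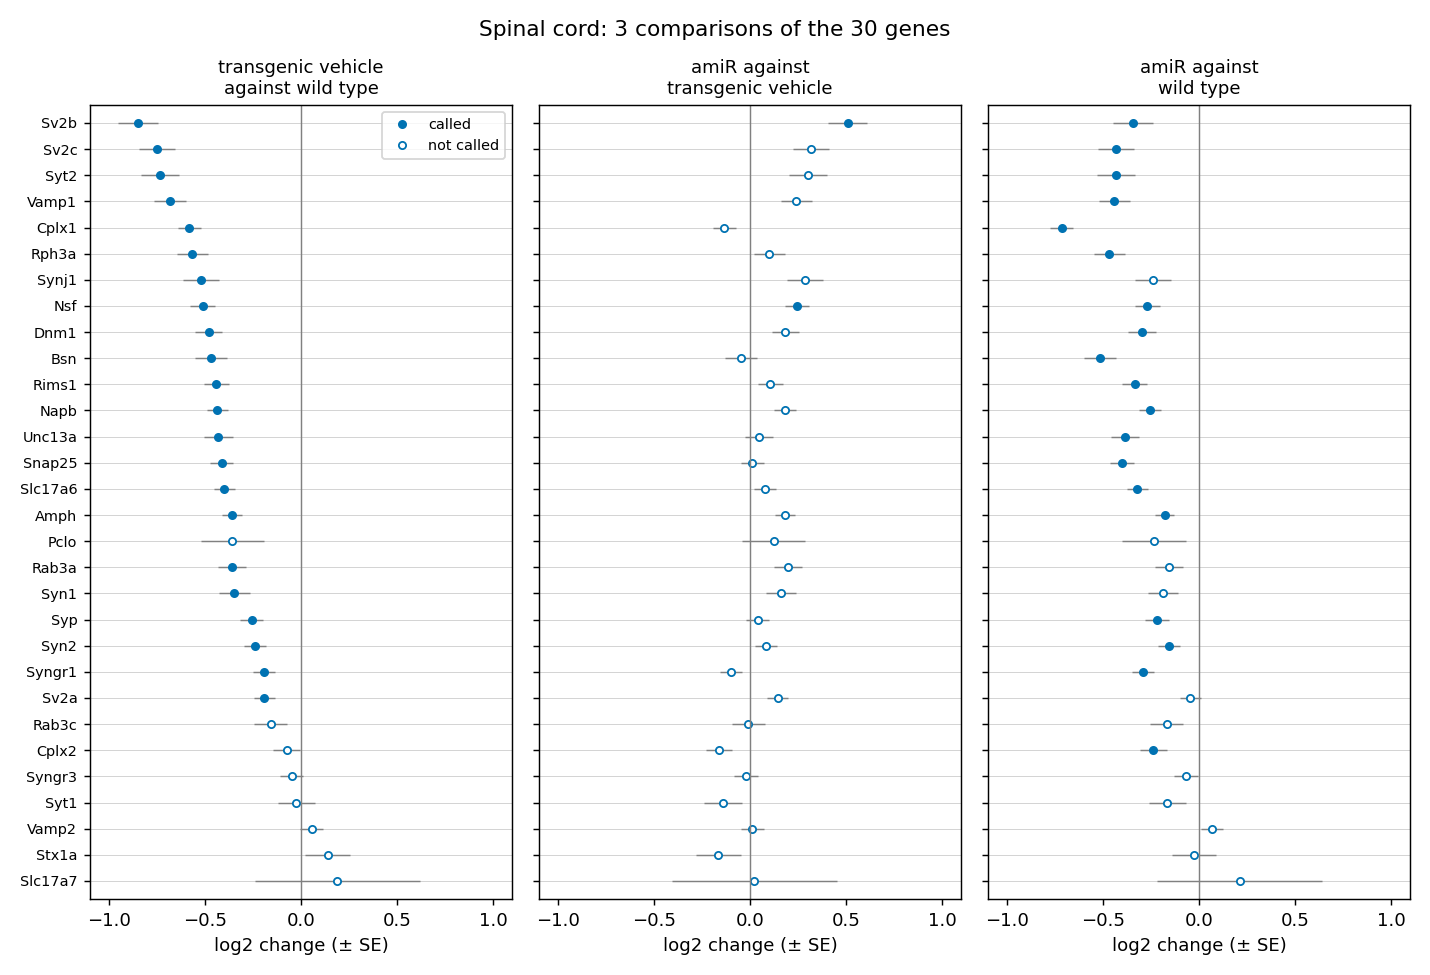
Log2 change of the 30 genes in the 3 spinal cord comparisons, in 1 gene order set by the left panel; bars are ± SE from edgeR and filled points passed an adjusted p of 0.05. Filled points number 22 below 0 in the left panel, 2 above 0 in the middle panel (Sv2b and Nsf) and 19 below 0 in the right panel; the panels share libraries.

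In cortex the treatment contrast called 0 of 30 genes in edgeR, where 0.0197% of 20278 genes were called (0.00986% higher, 0.00986% lower). In the same test 13 had an unadjusted p below 0.05 (9 higher, 4 lower), and the share of all genes under it was not computed. DESeq2 called 4 (Syn1, Slc17a7 and Amph higher, Cplx1 lower) and 1.68% of all genes. Without transgenic vehicle cortex library 3 the edgeR count was 3 (Sv2b, Syn1 and Amph, all higher; 0.396% of all genes). Treated cortex held 2096 to 5852 WPRE counts per library, and Atxn2 was at 101 ± 9.02 CPM in transgenic vehicle and 83.7 ± 8.42 CPM in treated cortex (SD, n = 6 each). The interaction of treatment with tissue called 0 of 30, where 0.176% of 21562 genes were called (0.0417% higher and 0.134% lower), and 0 in DESeq2. At an unadjusted p below 0.05 there were 6, again with no share of all genes computed. Slc17a7 ran at 803 to 1161 (median 1027) CPM in transgenic vehicle cortex and at 1230.1 to 1352 (median 1251) CPM in treated cortex, with every treated library above every vehicle one (log2 change 0.33 ± 0.08, adjusted p = 0.16). The share of all genes without overlap was not computed for treated against transgenic vehicle cortex. No gene of the set passed the adjusted threshold in that edgeR comparison of treated with transgenic vehicle cortex.

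Treated cortex against wild-type cortex called 2 of the 30, 1 in each direction, where 1.12% of 20278 genes were called (0.666% higher, 0.459% lower). Cplx1 was at 396, 515, 488, 563 and 511 CPM in the 5 wild-type cortex libraries and at 298 to 394 (median 373) CPM in the 6 treated ones, all of which were below the lowest wild-type library (log2 change −0.47 ± 0.11, adjusted p = 0.048). Amph was at 159, 147, 155, 153 and 154 CPM in wild type and at 175 to 216 (median 204) CPM in treated cortex, every treated library being higher (log2 change 0.36 ± 0.08, adjusted p = 0.048). Transgenic vehicle cortex lay between and across these, at 385 to 528 (median 483) CPM for Cplx1 and 134 to 207 (median 161) CPM for Amph. Syn1, Nsf and Slc17a7 also had every treated library above every wild-type one and were not called. The share of all genes without overlap was not computed for this contrast. Both calls were close to the threshold: Cplx1 was called in 6 of 21 alternatives and Amph in 5 of 21. In all, 0 genes of the set were called when any of wild-type libraries 2 to 5 or treated libraries 2 to 6 was left out, and 1 (Cplx1) without wild-type library 1. DESeq2 called 6 and 6.81% of all genes. Cplx1 was thus the member called lower in treated tissue than in wild type in both cord and cortex in edgeR.

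In muscle most of the set was scarce, with a summed level of 180.0 to 192 CPM in wild-type libraries. Vamp2 (49.8 ± 2.85 CPM, SD, n = 6), Rab3a (38.1 ± 3.30), Vamp1 (24.9 ± 2.99), Syngr1 (23.0 ± 2.19), Nsf (19.8 ± 0.717), Synj1 (10.5 ± 1.44), Dnm1 (6.41 ± 2.16), Napb (4.37 ± 0.659), Syp (3.08 ± 0.338), Cplx2 (1.83 ± 0.296) and Pclo (0.985 ± 0.647) carried almost all of it. Of the 30 genes, 12 reached a mean of 1 CPM in some arm, the 12th being Sv2b in treated muscle, and 22 passed the filter on low counts. The 8 that did not were Syt1, Syt2, Syngr3, Rab3c, Rph3a, Cplx1, Rims1 and Slc17a6. Slc17a6 had no count in the 5 transgenic vehicle libraries. Taken alone, 0 counts in 1 library allow up to 3 there (counting error only), and the 5 together allow less per library.

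Transgenic vehicle muscle differed from wild-type muscle in 13 of the 22 genes tested, 9 higher and 4 lower, where 50.5% of 16949 genes were called (25.7% higher, 24.8% lower), a share near that of the set. Libraries of transgenic muscle carry larger TMM factors (1.04 to 1.18 against 0.839 to 0.977), and with library totals alone the median of all genes moved up by 0.33 log2 units and the split became 14 higher and 3 lower. The share of all genes called with library totals is not given here, so that split has no background beside it. Genes that passed the filter only through the arm where they are high had to differ, so these counts are a description. The 4 lower genes were all among the better measured ones. Syngr1, a small vesicle membrane protein found in several tissues, ran at 20.1 to 25.7 (median 23.5) CPM in wild-type muscle and at 8.84, 10.5, 13.4, 12.8 and 13.8 CPM in the 5 transgenic vehicle libraries (log2 change −0.99 ± 0.10, adjusted p = 1.2e-06). Syp ran at 2.73 to 3.69 (median 3.03) CPM and at 1.30, 1.62, 1.54, 1.38 and 1.87 CPM (log2 change −0.99 ± 0.14, adjusted p = 2.3e-05), and Rab3a at 35.4 to 43.6 (median 36.4) CPM and at 22.0, 29.3, 26.7, 26.3 and 27.1 CPM (log2 change −0.53 ± 0.09, adjusted p = 0.00013). In these 3 every transgenic vehicle library lay below every wild-type one. The share of all muscle genes without overlap was not computed, and with 50.5% of genes called it may be large. Vamp1 changed little (log2 change −0.20 ± 0.06, adjusted p = 0.0087) and turned to 0.13 with library totals, and Vamp2 (−0.02 ± 0.06) and Nsf (−0.01 ± 0.04), not called here, turned to 0.32 and 0.33. Cplx2 (log2 change 0.22 ± 0.15, adjusted p = 0.23), Napb (log2 change 0.19 ± 0.09, adjusted p = 0.1) and Pclo (log2 change −0.19 ± 0.29, adjusted p = 0.61) did not pass the test.

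The higher genes were mostly scarce. Dnm1, the best measured of them beside Synj1, ran at 3.76 to 9.35 (median 6.39) CPM in wild-type muscle and at 10.1, 10.3, 11.6, 10.3 and 10.4 CPM in transgenic vehicle muscle, all 5 above the 6 wild-type libraries (log2 change 0.75 ± 0.19, adjusted p = 0.0039). Sv2b ran at 0.0635 to 0.503 (median 0.228) CPM and at 0.235, 0.729, 1.30, 1.16 and 0.793 CPM, with overlap (log2 change 1.86 ± 0.38, adjusted p = 0.00068). Syn1 ran at 0.0462 to 0.133 (median 0.0816) CPM, or 3 to 10 counts a library, and at 0.927, 0.533, 0.357, 0.600 and 0.484 CPM, or 37 to 83 counts, with no overlap (log2 change 2.72 ± 0.40). No wild-type library had more than 10 counts of Syn1, 7 of Bsn or 7 of Unc13a, so these genes passed the filter through the arms where they are high. They are counted among the higher genes, but their calls and log2 changes are a description only. Syn2 (1.56 ± 0.23), Bsn (1.51 ± 0.38), Unc13a (1.42 ± 0.35), Sv2c (1.08 ± 0.42, called in 9 of 21 alternatives), Sv2a (0.59 ± 0.17) and Synj1 (0.28 ± 0.08) were the others. Timp1, which lies within Syn1 on the other strand, went from 0.455 ± 0.189 to 11.5 ± 5.64 CPM, and Timp4, which overlaps Syn2, from 19.8 ± 5.21 to 9.04 ± 1.78 CPM (SD, n = 6 and 5). Timp1 shares 0 exonic bases with Syn1, and whether its reads were counted to Syn1 was not tested.

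**Figure D5:**
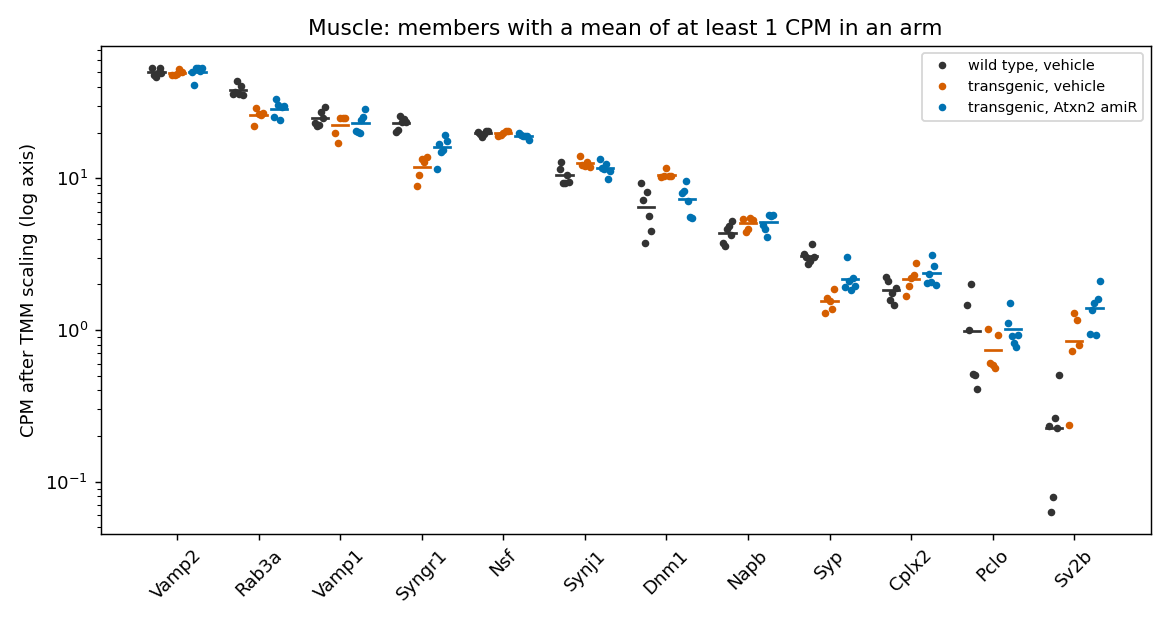
Level of the 12 genes of the set with a mean of at least 1 CPM in some muscle arm, in CPM after TMM scaling on a log axis; each point is a library, short lines are group means, and colours give the arm. Rab3a, Syngr1 and Syp lie lower in transgenic vehicle than in wild-type muscle and Dnm1 higher, with no overlap, while Vamp1, Vamp2 and Nsf change by little and turn their sign when library totals replace TMM. The share of all muscle genes without overlap was not computed.

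Of 10 genes that denervated muscle switches on, all 10 rose in transgenic vehicle muscle (median 3.81; 63.6 to 97.5 CPM in wild-type and 1033 to 1796 CPM in transgenic vehicle libraries), with the fetal acetylcholine receptor subunit Chrng at 0.876 ± 0.406 and 27.8 ± 5.80 CPM (SD). Of 11 pan-neuronal genes tested 5 rose and 0 fell (70.7 to 89.7 and 115 to 133 CPM), led by Uchl1 (3.49 ± 0.28) and Gap43 (1.99 ± 0.34). Of 6 Schwann cell markers 1 rose (31.6 to 68.4 and 53.2 to 76.3 CPM), of 11 microglia and macrophage markers 10 rose (20.3 to 46.8 and 64.9 to 76.9 CPM), and of 8 muscle fibre markers 6 fell and 1 rose. Chat and Mnx1, both from the list of motor neuron markers, had no count in either arm. The part of these shifts in the changes of the set was not tested.

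Treated muscle held 1 to 5 WPRE counts per library, against 3189 to 6962 in cord, and Atxn2 was at 59.1 ± 2.72 CPM (SD, n = 5) in transgenic vehicle and 60.4 ± 5.72 CPM (SD, n = 6) in treated muscle. The treatment contrast called 1 of the 22 genes there, higher, where 1.12% of 16949 genes were called (0.767% higher, 0.354% lower). Syngr1 ran at 11.6 to 19.4 (median 16.2) CPM in treated muscle, with 1 library within the transgenic vehicle range and 5 above it (log2 change 0.46 ± 0.10, adjusted p = 0.041), and was not called without any 1 of transgenic vehicle libraries 1 to 4 or treated libraries 2, 3, 5 and 6, which left 0. DESeq2 called Syngr1 and Syp, and its share of all genes is not given here. Dnm1 ran at 5.44 to 9.64 (median 7.52) CPM in treated muscle, below all 5 transgenic vehicle libraries, without passing the threshold (log2 change −0.57 ± 0.19, adjusted p = 0.13). Shares of all genes without overlap were not computed for treated muscle. Against wild type, treated muscle differed in 11 of 22 genes, 8 higher and 3 lower, where 35.2% of 16949 genes were called (17.5% higher, 17.7% lower). With library totals the median of all genes moved up by 0.20 log2 units and the split was 12 and 2. The share of all genes called in that fit is not given here. Syngr1 (−0.53 ± 0.10), Syp (−0.50 ± 0.13) and Rab3a (−0.40 ± 0.08) were lower, and Sv2b, at 0.920 to 2.10 (median 1.43) CPM, was higher than in every wild-type library (log2 change 2.77 ± 0.37, adjusted p = 2.9e-05). Snap25 (2.55 ± 0.68) and Slc17a7 (1.04 ± 0.29) were also called higher here, both at levels under 1 CPM. Snap25 passed the filter on low counts mainly through treated libraries. Calls of such genes, here as in the vehicle contrast, are a description only. Snap25 was at 0.0432 ± 0.0572 CPM in wild-type and 0.267 ± 0.318 CPM in treated muscle (SD, n = 6 each), and Slc17a7 at 0.215 ± 0.0830 and 0.444 ± 0.146 CPM. Most of the Snap25 counts were in treated libraries 4 and 5, with 45 and 68, where the other 4 had 2 to 13 and wild-type libraries 0 to 9. Without library 5 the log2 change of Snap25 was 2.07. The same libraries 4 and 5 were high for Syt1 (28 and 28 counts, 4 to 6 in the others) and Rab3c (20 and 17, 0 to 5 in the others), neither of which was tested.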

How the data were processed

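Poly(A) RNA-seq libraries of spinal cord (18), cortex (17) and muscle (17) were analysed. The deposited table holds expected counts per gene, estimated by the authors with RSEM with no normalization that the labels or values show; the submitters' processing notes name bcl2fastq 2.20, STAR 2.7.2d, RSEM 1.3.2, DESeq2 1.34.0, GRCm38 and GRCh38, and strand settings and annotation release are not given in the sources used here. Counts were rounded. Mouse genes were fitted per tissue with edgeR 4.0.16 (R 4.3.3; TMM, filterByExpr, quasi-likelihood F tests, arm and sex), with p-values adjusted over all genes tested (Benjamini-Hochberg). Differences between cord and cortex came from a joint fit that treated tissues as separate samples, since the labels do not tie them to animals. The table has 55510 lines, and non-mouse features took up to 0.167% of the counts of any library. Exon lengths and positions are from GENCODE M21, where 28 of the 30 identifiers have the same version.

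The members and marker lists were chosen with earlier results of these data known. Named with values in every library were the 8 largest changes in transgenic cord, the paralog pairs, the glutamate transporters, and genes called in treatment or cortex comparisons (at most 6 per tissue); in muscle, genes of at least 1 CPM. The 5 opposite-strand neighbours were added after the table was seen, and Syn1 in muscle was detailed after its values were seen. Alternatives changed the test (DESeq2 1.42.0), scaling, filter, covariates, libraries and the 4 conflicting labels. The scripts were tested on simulated data.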

Additional observations from a re-analysis of the deposited data

Results flagged for a closer look

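The transgene effect differed between spinal cord and cortex by the interaction test for 14 genes, as log2 difference, cord minus cortex: Sv2a −0.258, Sv2b −0.783, Sv2c −0.94, Syp −0.307, Syn1 −0.355, Rab3a −0.422, Rph3a −0.524, Vamp1 −0.634, Cplx1 −0.527, Nsf −0.64, Napb −0.484, Slc17a6 −1.09, Dnm1 −0.457 and Amph −0.482. Rab3a, Cplx1, Nsf, Dnm1 and Amph were called in all 34 alternatives run for this contrast, and Sv2a in 8 and Slc17a6 in 9 of 34.

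Single libraries stood apart from their group in 11 of 246 groups of libraries examined, by the gap to the nearest library as a share of the group's range; chance flags about 1 in 20 groups. In spinal cord, treated library 1 was lowest for Sv2a (430.5 CPM, share 0.669), wild-type library 4 highest for Syn2 (268 CPM, 0.732) and treated library 3 highest for Vamp2 (374 CPM, 0.625). In cortex, wild-type library 1 was lowest for Snap25 (1817 CPM, 0.812) and for Unc13a (324 CPM, 0.83), and transgenic vehicle libraries were highest for Vamp1 (library 6, 203 CPM, 0.709) and Cplx2 (library 2, 2012 CPM, 0.628). In muscle, treated library 2 was highest for Syp (3.04 CPM, 0.703) and lowest for Vamp2 (41.3 CPM, 0.736), and transgenic vehicle libraries were highest for Snap25 (library 5, 0.309 CPM, 0.741) and Dnm1 (library 3, 11.6 CPM, 0.84).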

How the results depend on the processing

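Each count of called genes was recomputed under 9 to 12 other settings and with each library left out in turn. Counts stayed within 1.5 times their value for transgenic vehicle against wild-type cord (22; 19 to 24), treated against wild-type cord (19; 16 to 20), transgenic vehicle against wild-type cortex (0), muscle (13; 10 to 17, and 11; 10 to 14), the treatment interaction (0) and wild-type cord against cortex (25; 24 to 27). The others moved. In cord, treated against transgenic vehicle (2) gave 8 with DESeq2, 1 with library totals, without the low-count filter, with the RNA integrity number and with the replicate block, 0 without older mice and 0 with the 4 conflicting libraries assigned by library name, and 1 to 12 with a library left out. In cortex, treated against transgenic vehicle (0) gave 4 with DESeq2 and 0 to 3 with a library left out. Treated against wild-type cortex (2) gave 6 with DESeq2, 5 with only the 2 arms fitted, 0 with library totals, without the filter, with the RNA integrity number, with age, without older mice and with the replicate block, and 0 to 2 with a library left out. Treated against transgenic vehicle muscle (1) gave 2 with DESeq2 and with only the 2 arms fitted, 0 with library totals, without a sex term, with age, without older mice and with the replicate block, and 0 to 1 with a library left out. The transgene interaction (14) gave 8 with library totals, 9 without the conflicting libraries and 8 to 16 with a library left out. The cause was not tested. Of 8155 recomputed values of single genes, 3 turned their direction and were called in the main fit or in the alternative. All were in transgenic vehicle against wild-type muscle with library totals: Vamp1 to 0.13, Vamp2 to 0.32 and Nsf to 0.33. Changes of sign in values called in neither fit were not counted. Replicate numbers showed no steady pairing of arms within a tissue. Deviations of like-numbered libraries had correlations between −0.27 and 0.19 (cord), −0.33 and 0.33 (cortex), and −0.22 and 0.18 (muscle). In cortex 5 of 16 pairs were over 0.1. Title numbers differ from library-name numbers for some libraries, and pairing across tissues was not examined, so pairing is not excluded. The replicate block changed no other count by over 1.5 times. Low muscle levels, often under 1 CPM, limit what could be seen there.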
